A study of Caenorhabditis elegans with 4 samples.

Results

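The *nas* genes of *Caenorhabditis elegans* encode astacins, a family of zinc metalloproteases. They were taken as every row of the deposited gene tables whose gene name is *nas-* followed by a number, and 37 of the 46096 listed genes met that rule. The levels come from the *prg-1* mutant (labelled strain wm161), which lacks normal function of the Piwi protein PRG-1, fed on the bacterium OP50 at 20°C. Whole worms gave 1 poly(A) RNA library for each larval stage, L1 to L4. All groups carry the same mutation, wild-type libraries were not analysed here, and the hour within a stage at which worms were collected is not given in the sources used here, so each comparison below is between stages of the mutant and has no replicate.

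Astacins are secreted or membrane-anchored enzymes that bind a zinc ion in their active site and cut proteins outside the cell. In nematodes they are known for work on the cuticle, the collagen coat that a larva sheds and rebuilds at each moult, for hatching from the eggshell and for shaping the pharynx. NAS-36 and NAS-37 are needed to shed the old cuticle, and worms that lack either enzyme stay caught in it. NAS-6 and NAS-7 take part in forming the grinder of the pharynx, NAS-38 acts on the sleep-like rest of the moult, and NAS-39 is the family member most like the tolloid and BMP-1 proteases of other animals. No protein or promoter sequences were used here.

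The unit of level is FPKM, in which fragments are counted per kilobase of a transcript and scaled to the mapped fragments, so that genes of unequal length can be compared. The range after a value is the 95% interval of the deposited Cufflinks files, which covers error within a library only. All 37 members had a status of OK in the 4 libraries, and 36 are protein-coding in the reference annotation, while *nas-40* is a pseudogene. Depth, read from the steps between low values, was at most 1.053 times that of the L1 library. *prg-1* itself was detected at 11.02 to 23.6 FPKM, and a value for a whole gene does not check the genotype. Markers of epidermis, pharynx, intestine, body wall muscle, neurons and germline were all above 0 in each library, as the label of whole worms implies. The L1 and L4 libraries also held more of some transcripts known from adults or sperm than the L2 and L3 libraries did. From L1 to L4, *vit-2*, *vit-6* and *col-19* summed to 25.7, 1.37, 1.05 and 201.1 FPKM, and *msp-10*, *msp-56* and *spe-11* to 25.6, 1.69, 0.308 and 10.7 FPKM. The part of such RNA in the L1 and L4 values of *nas* genes was not tested.

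Of the 37 *nas* genes, 26 reached 1 FPKM in at least 1 library and 15 did so in all of them. Another 8 were above 0 and never reached 1 FPKM, and *nas-16*, *nas-17* and *nas-40* were listed at 0 throughout. From L1 to L4, 15, 25, 21 and 23 members stood at 1 FPKM or more, or 40.5%, 67.6%, 56.8% and 62.2% of the family. Among all protein-coding genes that share stayed between 63.2% and 64.5%, so the count of expressed *nas* genes varied over a wider range than the count of expressed genes as a whole. The summed level of the family was 117.4, 323.4, 232.8 and 262.8 FPKM from L1 to L4. At L1 the 3 highest members, *nas-11*, *nas-3* and *nas-9*, made up 66.3% of the sum. At L2 the 3 highest were *nas-15*, *nas-38* and *nas-14*, with 43.9%. The L1 library was therefore low in most of the family and carried by other members than the L2 library.

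**Figure D1:**
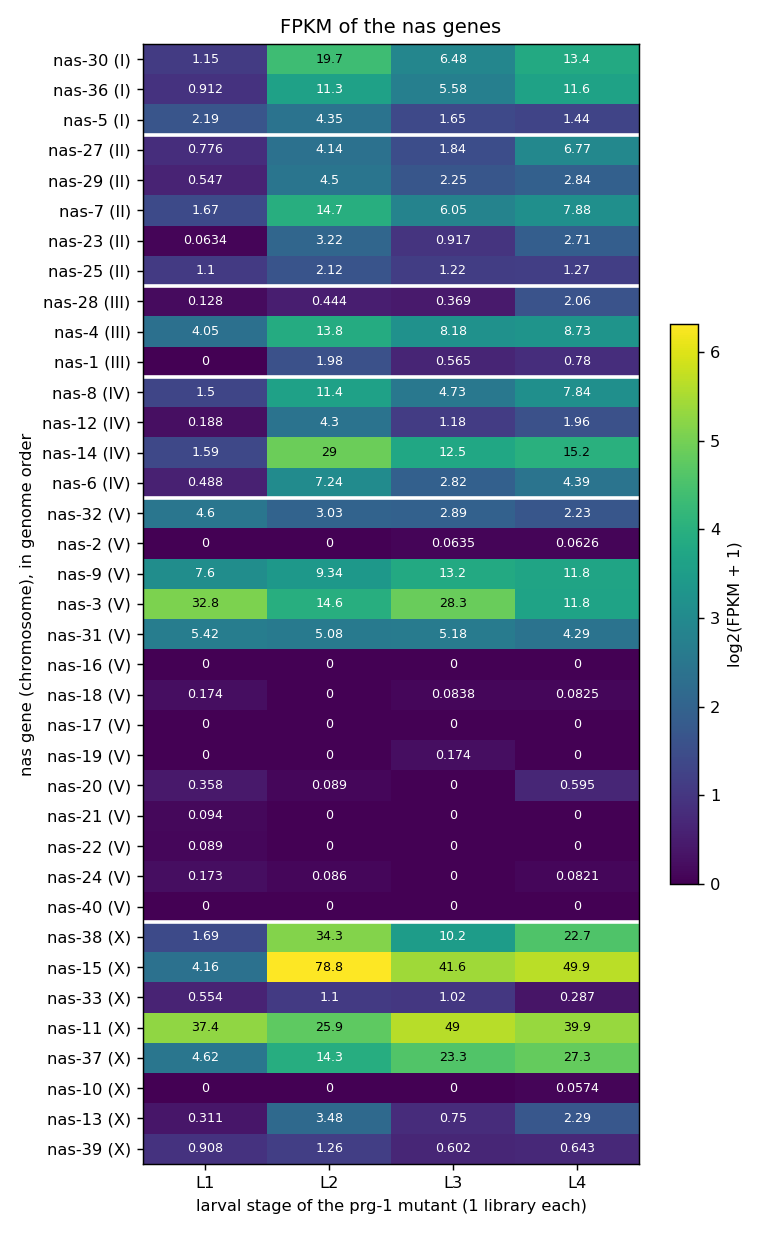
FPKM of the 37 *nas* genes (rows, in genome order with the chromosome in parentheses) at the 4 larval stages (columns, 1 library each), coloured by log2(FPKM + 1) with the FPKM printed in each cell. The L2 column is the brightest for most rows of chromosomes I to IV, and 10 of the 14 rows of chromosome V stay below 1 FPKM.

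A rule of size served to compare stages, since 1 library per stage allows no test. A gene was called higher or lower when log2(FPKM + 1) differed by at least 1, its FPKM was at least 1 in either stage and its intervals did not overlap. At L2 against L1, 16 of the 37 *nas* genes (43.2%) were higher, where the rule called 4.71% of 19480 protein-coding genes higher, and *nas-3* alone was lower, where it called 1.74% of them lower. At L3 against L2, 10 members were lower (27.0%, beside 2.17% of 19469 protein-coding genes) and none was higher (beside 1.15%). At L4 against L3, *nas-27*, *nas-28* and *nas-38* were higher (8.11%, beside 2.56% of 19454 genes) and *nas-3* was lower (2.70%, beside 0.355%). The median log2 difference over all 37 members was 0.44, -0.12 and 0.08 at these steps, and that over all protein-coding genes was -0.03, 0 and 0. Neighbouring comparisons share a library, so a value that was high at L2 enters both the first step and the second.

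**Figure D2:**
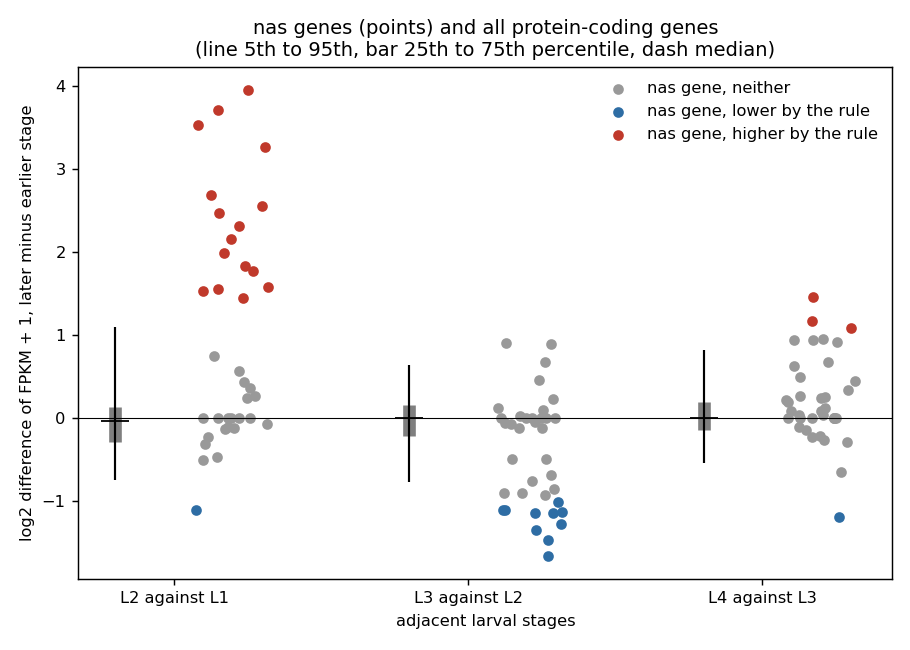
Log2 difference of FPKM + 1, later minus earlier stage, for the 37 *nas* genes (points, coloured by the rule of size) at each step between adjacent stages, beside all protein-coding genes (line 5th to 95th percentile, bar 25th to 75th, dash median). At L2 against L1, 16 points are called higher and reach 3.95, while 10 points are called lower at L3 against L2, where the lowest is at -1.66.

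The enzymes of ecdysis, *nas-36* and *nas-37*, were both low at L1 and higher at L2, and they parted at L3. *nas-36* (C26C6.3, listed on chromosome I from 7527307 to 7531699, forward strand) stood at 0.912 (0.537 to 1.28), 11.3 (9.20 to 12.7), 5.58 (4.34 to 6.81) and 11.6 FPKM (9.46 to 13.1) in stage order. It was 12.4-fold higher at L2 than at L1, and the intervals allow 7.19-fold to 23.7-fold. The interval at L3 lies below those at L2 and L4, although the differences from L2 and to L4 (-0.91 and 0.93 on the log2 scale) stay just under the size the rule asks for. Its levels at L2 and L4 cannot be told apart within their intervals. *nas-37* (C17G1.6, chromosome X from 9944848 to 9949060, reverse strand) stood at 4.62 FPKM (3.76 to 5.49), 14.3 (12.6 to 15.9), 23.3 (21.3 to 25.4) and 27.3 (25.1 to 29.5) from L1 to L4. It was 3.08-fold higher at L2 than at L1 (2.30-fold to 4.22-fold by the intervals) and 5.91-fold higher at L4 than at L1. Its intervals at L3 and L4 overlap. Of the 16 members higher at L2 than at L1, *nas-37* was the only one whose level at L3 lay above that at L2, with intervals apart, and the other 15 had L3 intervals wholly below those at L2. *nas-36* and *nas-37* therefore share the low level at L1 and differ in the order of the later stages.

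*nas-38*, the member linked to the rest period of the moult, was the only one called at each of the 3 steps. It is listed as F57C12.1 (chromosome X from 558141 to 563657, forward strand). Its level was 1.69 (1.16 to 2.24), 34.3 (29.5 to 35.9), 10.2 (8.30 to 11.5) and 22.7 FPKM (19.3 to 23.998) in stage order. No pair of these intervals overlaps. It was 20.2-fold higher at L2 than at L1 (at least 13.2-fold by the intervals), 3.37-fold lower at L3 than at L2 and 2.23-fold higher at L4 than at L3. Together with *nas-36*, *nas-37* and *nas-33* it belongs to the astacins that carry thrombospondin type 1 repeats behind the protease domain. *nas-33* (K04E7.3) stayed low, at 0.554, 1.10, 1.02 and 0.287 FPKM, and was not called at any step. The level and the order of stages thus differed among these members, though *nas-36*, *nas-37* and *nas-38* were each lowest at L1 and higher at L2.

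**Figure D3:**
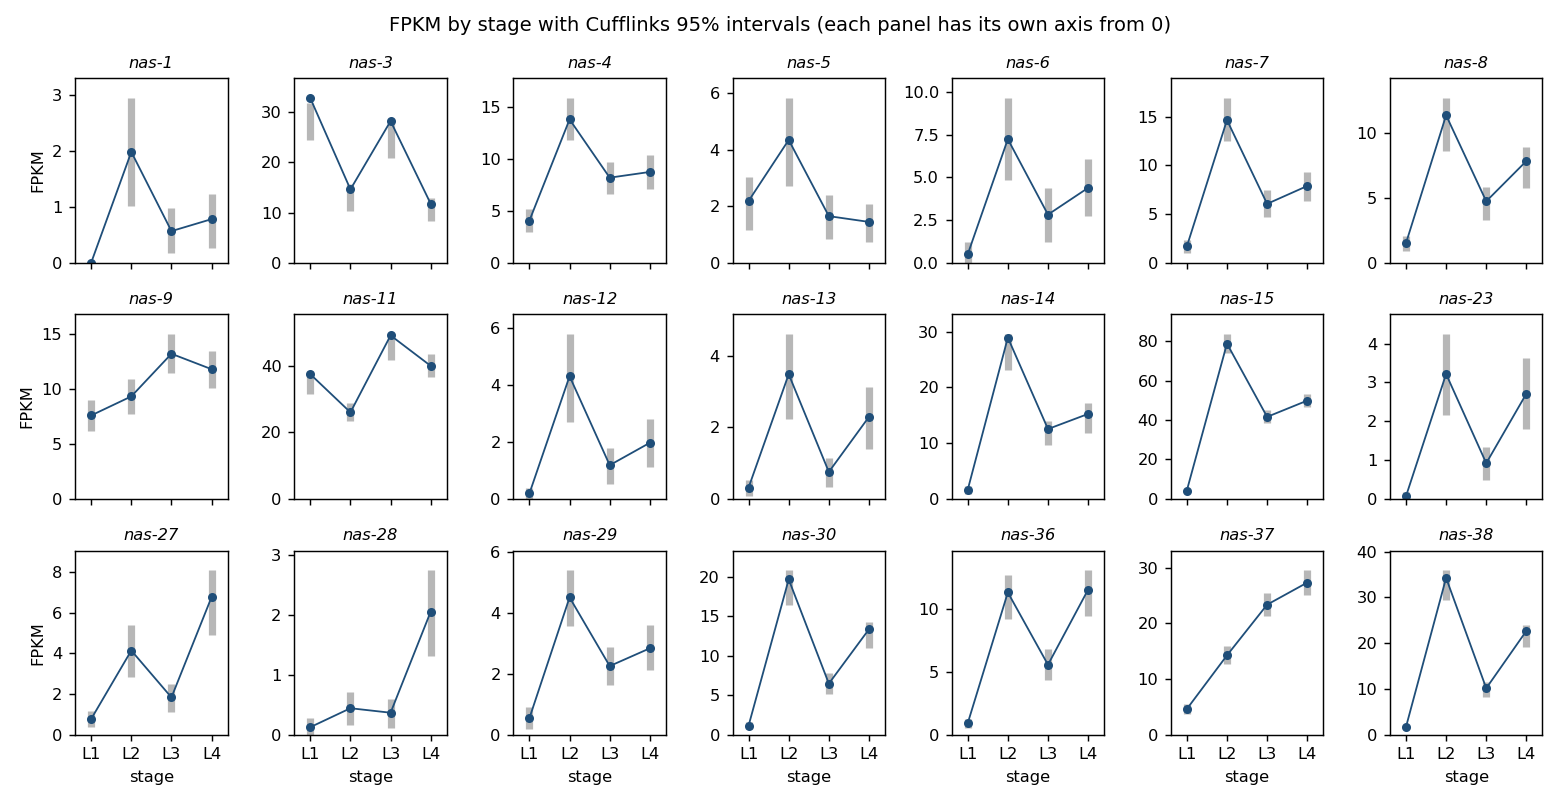
FPKM (vertical axes, each from 0) by larval stage for the 21 *nas* genes named by rule, with points for the values, thin lines joining the stages and grey bars for the Cufflinks 95% intervals. Most panels are lowest at L1, peak at L2 and dip at L3, whereas *nas-3* is high at L1 and L3. The points of *nas-37* are higher at each later stage, but its L3 and L4 intervals overlap.

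The genes of the pharyngeal grinder, *nas-6* and *nas-7*, were lowest at L1 and highest at L2, with a dip at L3, an order they shared with *nas-38*. By point values 14 of the 26 members that reached 1 FPKM were lowest at L1, highest at L2 and lower at L3 than at L4. The share of all protein-coding genes with that order was not counted. *nas-7* (C07D10.4, chromosome II from 7400544 to 7402707, reverse strand) stood at 1.67 FPKM (0.953 to 2.38), 14.7 (12.5 to 16.9), 6.05 (4.75 to 7.42) and 7.88 (6.34 to 9.35) from L1 to L4. *nas-6* (4R79.1, chromosome IV from 17486982 to 17490497, reverse strand) stood at 0.488 (0 to 1.19), 7.24 (4.85 to 9.65), 2.82 (1.22 to 4.41) and 4.39 FPKM (2.74 to 6.05). Both were higher at L2 than at L1, by 8.79-fold for *nas-7* and by 14.9-fold for *nas-6*, whose interval at L1 reaches 0 and allows a difference as small as 4.07-fold. Both were lower at L3 than at L2, by 2.42-fold and 2.57-fold. Their intervals at L3 and L4 overlap. The pharynx markers *myo-2*, *myo-1*, *ceh-22* and *pha-4* summed to 237.6, 243.1, 200.5 and 179.6 FPKM over the same stages, and no marker was called at any of the 3 steps. Between L1 and L2 the intervals of *myo-1*, *ceh-22* and *pha-4* overlap. *myo-2* was higher at L2 with intervals apart, at 95.9 (90.96 to 97.7) and 108.8 FPKM (103.3 to 110.8). At L3 against L2, *pha-4* was lower with intervals apart, at 26.5 (23.99 to 29.0) and 14.9 FPKM (13.1 to 16.6). So was *myo-2*, at 81.3 FPKM (76.97 to 82.9) at L3. The L2 and L3 intervals of *ceh-22*, at 7.89 (5.87 to 9.92) and 4.67 FPKM (3.18 to 6.16), overlap. Those of *myo-1* overlap too, at 99.9 (97.2 to 103.9) and 99.7 FPKM (97.2 to 103.7). The part of pharyngeal RNA in the levels of *nas-6* and *nas-7* was not tested.

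*nas-15* reached the highest level of the family at L2, and *nas-14* came next after *nas-38*. *nas-15* (T04G9.2, chromosome X from 777719 to 780514, forward strand) stood at 4.16 (3.22 to 5.10), 78.8 (74.2 to 83.6), 41.6 (38.4 to 44.9) and 49.9 FPKM (46.4 to 53.5) from the earliest stage to the latest. All 4 intervals are apart, and L2 was 18.9-fold above L1 (14.5-fold to 26.0-fold by the intervals). *nas-14* (F09E8.6, chromosome IV from 13170544 to 13173694, forward strand) stood at 1.59 (0.922 to 2.25), 29.0 (23.2 to 29.6), 12.5 (9.61 to 14.0) and 15.2 FPKM (11.9 to 17.2). It was 18.2-fold higher at L2 than at L1 and 2.31-fold lower at L3 than at L2. *nas-30* (Y95B8A.1, chromosome I from 942257 to 947711) stood at 1.15 (0.723 to 1.57), 19.7 (16.5 to 20.8), 6.48 (5.11 to 7.78) and 13.4 FPKM (11.03 to 14.3). Its intervals are all apart and keep the same order of stages as those of *nas-38*. Y95B8A.t1, a listed gene of 72 bases within *nas-30*, stood at 0, 125.7, 0 and 60.0 FPKM over the stages, and its part in the level of *nas-30* was not tested.

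The other members that were higher at L2 than at L1 stood at 13.8 FPKM or less in each library. *nas-4* (C05D11.6) was at 4.05 (2.96 to 5.15), 13.8 (11.8 to 15.8), 8.18 (6.65 to 9.71) and 8.73 FPKM (7.09 to 10.4), and *nas-8* (C34D4.9) at 1.501 (0.885 to 2.07), 11.4 (8.57 to 12.7), 4.73 (3.30 to 5.86) and 7.84 FPKM (5.78 to 8.92). Both had L1 intervals below those of each other stage. *nas-29* (F58A6.4) stood at 0.547 (0.199 to 0.896), 4.50 (3.56 to 5.39), 2.25 (1.63 to 2.88) and 2.84 FPKM (2.13 to 3.59), an 8.23-fold difference at L2 against L1. *nas-27* (T23F4.4) differed from these in its last step, at 0.776 (0.365 to 1.15), 4.14 (2.84 to 5.38), 1.84 (1.11 to 2.52) and 6.77 FPKM (4.91 to 8.08), and was 3.69-fold higher at L4 than at L3.

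Several of these genes were at or near the limit of detection at L1. *nas-23* (R10H1.5) stood at 0.0634 FPKM (0 to 0.166), 3.22 (2.15 to 4.24), 0.917 (0.481 to 1.34) and 2.71 (1.79 to 3.63), *nas-12* (C24F3.3) at 0.188 (0 to 0.387), 4.30 (2.70 to 5.78), 1.18 (0.522 to 1.79) and 1.965 (1.10 to 2.79), and *nas-1* (F45G2.1) was listed at 0, 1.98 (1.01 to 2.95), 0.565 (0.178 to 0.981) and 0.780 (0.264 to 1.23). The ratios at L2 against L1 were 50.7 for *nas-23* and 22.9 for *nas-12*, resting on a few reads at L1, and the intervals allow values as low as 12.9 and 6.96 with no upper bound. *nas-13* (F39D8.4) stood at 0.311 (0.0661 to 0.529), 3.48 (2.24 to 4.602), 0.750 (0.319 to 1.15) and 2.29 FPKM (1.38 to 3.14). A noncoding gene on the other strand, F39D8.7, shares 225 bases with it and is listed at 17.7, 8.47, 25.3 and 20.9 FPKM. Its order of stages is not that of *nas-13*, and since the use of strand is not given, reads of these genes cannot be separated where they overlap. Over the 15 members higher at L2 with a level above 0 at L1, the ratio ran from 3.08 to 50.7 with a median of 12.4. The rule picked these members by the same L1 and L2 values, so a difference of more than 2-fold was fixed in advance.

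Of the 16 members higher at L2 than at L1, 9 were lower at L3 than at L2 by the rule, and the L3 interval lay below the L2 interval in 15. By point values all 16 were higher at L4 than at L3, and in 7 the intervals were apart. Of the 915 protein-coding genes called higher at L2 with an OK status throughout, 36.3% were lower at L3 by the rule and 65.8% with intervals apart, 80.0% were higher at L4 than at L3 by point values, and in 35.8% those intervals were apart. Most of the genes called higher at L2 were thus lower at L3 with intervals apart, *nas* genes or not. At L4 against L1, 14 of the 16 remained higher, and with *nas-28* this made 15 members (40.5%, beside 7.1% of protein-coding genes), while *nas-3* was lower (beside 3.2%). At L3 against L1, 10 of the 16 were higher (27.0% of the family, beside 4.01%) and no member was lower (beside 2.15%). These compare with 75.4% and 59.2% of the 915 genes higher at L4 and at L3 than at L1. At L4 against L2, *nas-28* alone was higher (beside 3.68%), though not when each library was rescaled to the same sum, and *nas-5* alone was lower (beside 1.72%). The L1 library was thus the lowest for most expressed members and L3 lay between L1 and L2. Among the 26 members that reached 1 FPKM, 19 had their lowest point value at L1. The highest point value was at L2 in 17, at L4 in 4, at L1 in 3 and at L3 in 2. These counts were not made over all protein-coding genes.

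*nas-3* ran against the order of most expressed members, and *nas-11* moved in the same directions. It is listed as K06A4.1 (chromosome V from 9478164 to 9479604, forward strand) and stood at 32.8 (24.5 to 31.8), 14.6 (10.4 to 15.8), 28.3 (21.0 to 28.0) and 11.8 FPKM (8.25 to 12.9) from L1 to L4. It was high at L1 and L3 and low at L2 and L4, and the intervals of the high stages do not overlap those of the low ones. Its L1 and L3 estimates exceed the upper bounds of their intervals, which no estimate of another member does, so the level is uncertain and without these estimates *nas-3* is not called at either step. The ratio of the values was 2.24 at L1 over L2 and 2.405 at L3 over L4.

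*nas-11* and *nas-9* were expressed at every stage with smaller differences. *nas-11* (K11G12.1, chromosome X from 6713577 to 6716394, forward strand) had the highest level of the family at L1 and L3, at 37.4 FPKM (31.4 to 38.5), 25.9 (23.3 to 28.6), 49.0 (41.6 to 49.4) and 39.9 (36.5 to 43.4). Its interval at L2 lies below the other 3, the reverse of most members, and the differences of -0.51 and 0.89 on the log2 scale at the first and second step did not meet the rule. *nas-9* (C37H5.9, chromosome V from 4836028 to 4840010, reverse strand) stood at 7.60 (6.21 to 8.99), 9.34 (7.76 to 10.9), 13.2 (11.4 to 15.01) and 11.8 FPKM (10.1 to 13.5). Its intervals at L1 and L2 overlap, and so do those at L3 and L4. *nas-31* kept within 4.29 to 5.42 FPKM with intervals that all overlap, and *nas-32* stood at 4.596 (3.45 to 5.65), 3.03 (2.14 to 3.88), 2.89 (2.07 to 3.67) and 2.23 (1.53 to 2.90), with its L4 interval below that at L1.

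Of the members at the lowest levels, *nas-28* (F42A10.8) was close to 0 until the last stage. It stood at 0.128 (0 to 0.278), 0.444 (0.166 to 0.720), 0.369 (0.107 to 0.590) and 2.06 FPKM (1.32 to 2.75), and its L4 interval lies above the other 3. *nas-5* (T23H4.3) peaked at L2 with 4.35 FPKM (2.72 to 5.83), between 2.19 (1.17 to 3.05) at L1 and 1.65 (0.828 to 2.41) at L3, and ended at 1.44 (0.742 to 2.08). Only its L3 and L4 intervals are apart from that at L2, and it is not called at L3 when each library is rescaled to the same sum. *nas-25* stood between 1.10 and 2.12 FPKM and *nas-39*, the relative of tolloid and BMP-1, between 0.602 and 1.26 FPKM, and neither was called between any pair of stages.

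The members shared their place in the genome in part. Chromosome V holds 14 of the 37, and 10 of these stayed below 1 FPKM in every library, beside 1 of the 23 on the other chromosomes (*nas-10* on chromosome X). None of the 14 on chromosome V was higher at L2 than at L1, while 16 of the 23 elsewhere were. With 10 members below 1 FPKM, only 4 of the 14 could meet the rule. Of all protein-coding genes 4.91% were higher at L2 on chromosome V and 3.34% to 6.14% on the other chromosomes. Among all protein-coding genes of chromosome V 58.4% reached 1 FPKM in at least 1 library, the lowest share of any chromosome and below the 70.0% of all chromosomes. The low members include 2 groups of neighbours. *nas-16*, *nas-18*, *nas-17* and *nas-19* lie side by side with gaps of 2302, 1034 and 666 bases, and *nas-20*, *nas-21* and *nas-22* with gaps of 249 and 799 bases. In these 7 genes the highest value was 0.595 FPKM (0.212 to 0.918), in *nas-20* at L4, and every interval other than those of *nas-20* at L1 and L4 starts at 0. How reads that match several places were counted is not given, so the level of neighbours that resemble each other is uncertain.

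**Figure D4:**
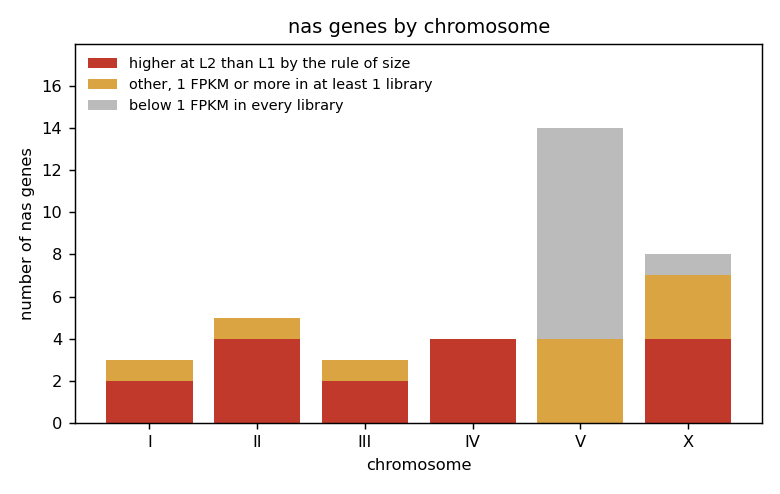
Number of *nas* genes on each chromosome, stacked by whether they were higher at L2 than at L1 by the rule of size, otherwise reached 1 FPKM in at least 1 library, or stayed below 1 FPKM in every library. Chromosome V has 14 members, 10 of them below 1 FPKM and none higher at L2, and all 4 members of chromosome IV were higher at L2.

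The family has 3 further genes that are listed under other names. *toh-1* (T24A11.3) had the order of stages seen in *nas-38*, with 6.80 (5.46 to 8.15), 43.9 (40.1 to 47.8), 18.6 (16.4 to 20.9) and 33.6 FPKM (30.4 to 36.7), and was called higher at L2 and lower at L3. *dpy-31*, which cuts the end of cuticle procollagens, stood at 12.9 (10.7 to 14.7), 17.3 (14.5 to 19.03), 16.5 (13.8 to 18.8) and 18.5 FPKM (15.5 to 20.1), and was not called at any step. *hch-1*, the hatching enzyme, was at 0.155 (0 to 0.277) at L1 and lower later, with every interval reaching 0. All intervals of *hch-1* overlap, so it has no order of stages that can be told within its error. Those of *dpy-31* overlap apart from L1, which lies below L4.

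Genes that work in the moult beside these enzymes were examined as a list of 21, of which 20 were found by name. At L2 against L1, 6 of the 19 with an OK status at both stages were higher (beside the 4.71% of protein-coding genes) and 2 were lower (beside 1.74%). *mlt-10*, a secreted protein of the moult, stood at 13.5, 137.9, 90.2 and 143.5 FPKM, and *qua-1*, a hedgehog-related protein, at 25.8, 127.2, 96.2 and 114.1. *ptr-18*, a patched-related protein, stood at 4.36, 42.5, 20.9 and 28.6 FPKM and *bli-5*, a protease inhibitor of the Kunitz type, at 0.441, 3.51, 1.49 and 3.56. In these genes, in *mlt-9* and in *dab-1*, L1 was the lowest stage, as in *nas-36* and *nas-38*. *nhr-23*, a nuclear receptor that drives the moulting cycle, had the reverse order of L1 and L2, at 54.8 (50.7 to 59.0), 24.98 (22.3 to 27.7), 39.4 (35.9 to 42.9) and 32.4 FPKM (29.4 to 35.4), and so did *fbn-1*, a fibrillin-like protein of the apical matrix, at 43.3, 10.4, 20.0 and 23.7. At L3 against L2 *mlt-7*, a peroxidase of the cuticle, was the only one of the list that was lower (beside 2.17%), at 93.6 (83.4 to 92.7) and 43.5 FPKM (38.2 to 44.8), and its L2 estimate lies outside its interval. At L4 against L3 none was called (beside 2.56% higher and 0.355% lower). Estimates outside their interval are also found in *mlt-10* at L2, L3 and L4, in *qua-1* at L2 and L4 and in *rol-6* and *dpy-13* at every stage, so those levels are uncertain. Of the 4 epidermis markers, the collagens *rol-6*, *dpy-13* and *sqt-3* were also higher at L2 than at L1, beside 4.71% of protein-coding genes. The other marker, *dpy-7*, was not called at any step, at 109.6, 156.9, 145.3 and 141.8 FPKM. Together the epidermis markers summed to 541.6, 6222, 3386 and 4768 FPKM over the stages. Most of the L2 sum came from *dpy-13* (3001 FPKM) and *sqt-3* (2418 FPKM), so it mainly follows these collagens. The part of the phase of the moult, and of epidermal RNA as a share of the sample, in the levels of the *nas* genes was not tested. In whole worms, more cells that express a gene and more RNA per cell cannot be told apart. Of 7 genes for cuticle collagen maturation, *doxa-1* alone was called at L2 against L1, at 3.97 (2.86 to 5.08) and 10.8 FPKM (8.52 to 12.5), beside the same 4.71%, and none was called at the later steps.

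**Figure D5:**
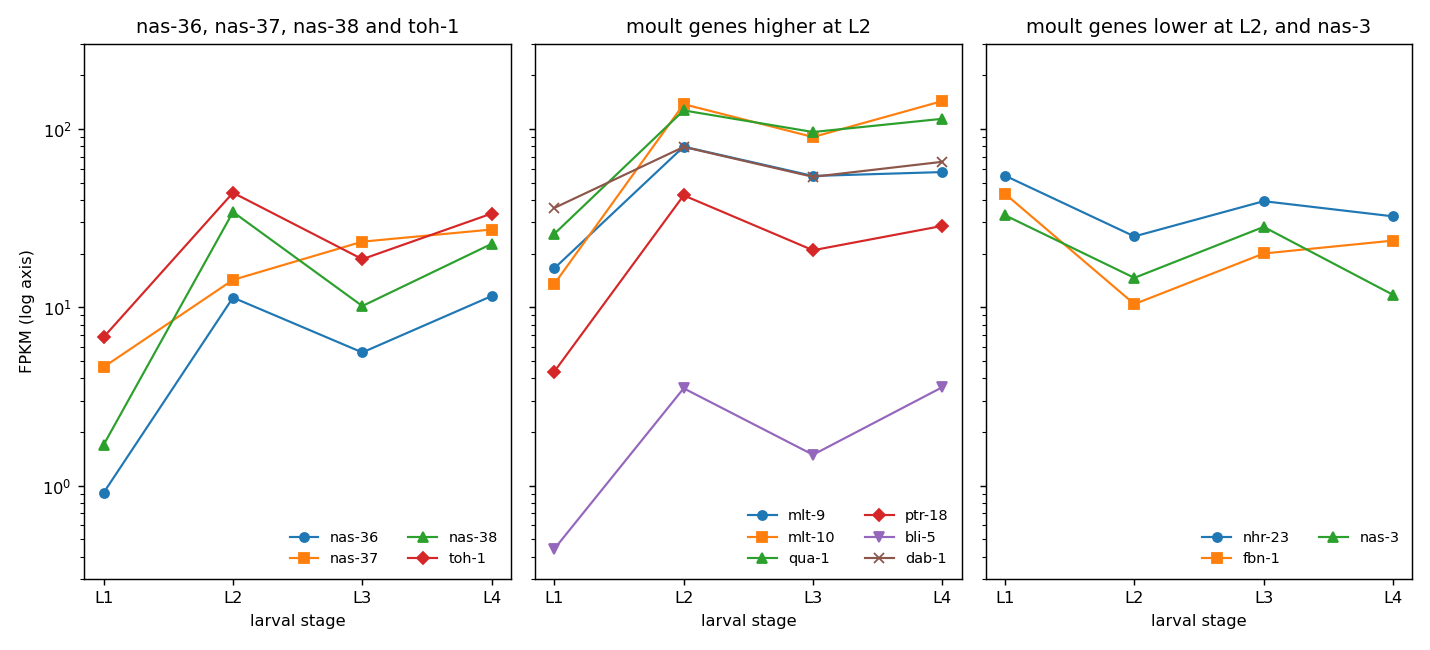
FPKM on a shared log axis by larval stage (1 library each) for *nas-36*, *nas-37*, *nas-38* and *toh-1* (left), the genes of the moult called higher at L2 than at L1 (middle), and the genes of the moult called lower at L2 with *nas-3* (right). The lines of the left and middle panels start lowest at L1, while *nhr-23*, *fbn-1* and *nas-3* are highest at L1 and all lower at L2.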

How the data were processed

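Per the submitters' processing notes, the authors aligned poly(A) reads to ce10 using TopHat2 (2.0.8) and obtained levels from Cufflinks (2.1.1). Which annotation was used, how reads with several matches were handled and whether strand was used is not given in the sources used here. Files deposited by the authors hold FPKM, a 95% interval and a status for every gene.

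Python (3.11.15), numpy (2.4.6), pandas (2.3.3) and matplotlib (3.10.9) were used. Files were joined by gene ID and locus. Starts are printed with 1 added, since 30102 of 44872 matched genes then had the start of the WBcel235 annotation and 472 as listed. Strand and biotype come from WBcel235 and the RefSeq gene table. The rule of size used a pseudocount of 1 FPKM, and differences on this scale understate those of low genes. No p-value was computed. The rule was tested on simulated data made from L1 values of genes at 1 FPKM or more, with 4-fold changes put in. These data hold no lower genes and no spread between cultures, so they do not check calls on such genes. Genes were named if they met the rule between any 2 stages, were among the 10 highest by mean, or were *nas-36* or *nas-37*. Others, the markers and the thrombospondin group were chosen after values were seen or come from lists. Members and lists were chosen with earlier results of these data known. Alternatives changed the pseudocount, minimum, scaling, fold, use of intervals and values outside their interval.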

Additional observations from a re-analysis of the deposited data

How the results depend on the processing

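No paired analysis was possible because the stages lack replicates. At 4-fold in place of 2-fold, fewer by construction, 9 members were higher and 0 lower at L2 against L1, 0 were lower at L3 against L2, and at L4 against L3 0 were higher and 0 lower. Alternatives for the stages that are not adjacent were chosen after seeing the data. There, 4-fold left 4 higher at L3 against L1, 7 higher and 0 lower at L4 against L1, and 0 higher and 0 lower at L4 against L2. A pseudocount of 0.1 damps low values less by construction, and with it 7 members were higher (adding *nas-13*, *nas-23*, *nas-30* and *nas-36*) and 2 lower (adding *nas-33*) at L4 against L3. The median log2 difference over members at 1 FPKM or more in either stage, 1.58 at L2 against L1, became 2.83. That minimum was met by 15 members at L1, 25 at L2 and 21 at L3. It thus lets in members through their L2 level, which favours a rise to L2 and a fall from it. That pseudocount also added *nas-1*, *nas-27* and *nas-36* to the members lower at L3 against L2, 13 in all, and made 2 lower at L4 against L1 (adding *nas-32*) and 2 at L4 against L2 (adding *nas-33*). Without values outside their interval, which removes *nas-3*, 0 members were lower at L2 against L1, 0 were lower at L4 against L3 and 0 were lower at L4 against L1. Rescaling each library to a sum of 1000000 left 0 higher at L4 against L2 (losing *nas-28*) and 9 lower at L3 against L2 (losing *nas-5*). Without a minimum FPKM, which adds members near 0 by construction, the median was 0.44 at L2 against L1, and at L3 against L2 it was -0.12 in place of -0.91. Median-ratio rescaling multiplied the values by 0.934 at L1 and by 1.01 to 1.02 at the other stages, which moved the median of protein-coding genes at 1 FPKM or more at L2 against L1 from -0.12 to -0.01. The 16 members higher at that step were 16 of the same genes under each alternative other than 4-fold. Of those alternatives, only the rescalings could have removed any of the 16. The pseudocount, minimum and interval alternatives only loosen the rule, and none of the 16 had a value outside its interval. Each other count for the 6 pairs of stages stayed within 1.5 times its value. The sign of a called difference was no check. A pseudocount cannot reverse it, and the scaling was too small to do so. The lists of other genes were not run under alternatives. The spread between cultures is unknown.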

Other observations

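Some values belong in no comparison above. *mlt-8*, a gene of the moult, stood at 110.6 FPKM at L1 and 291.1 at L4, and its estimate failed at L2 and L3, where it is listed at 0. *nas-2*, *nas-10*, *nas-18*, *nas-19*, *nas-21*, *nas-22* and *nas-24*, of the members that never reached 1 FPKM, had a highest value of 0.174 FPKM, in *nas-18* at L1 and *nas-19* at L3. *nas-22* shares 995 of its bases with T11F9.7, a protein-coding gene listed at 0.0819 FPKM at L1 and at 0 later. The noncoding gene Y95B8A.13 within *nas-30* is listed at 35.0 FPKM at L4 and at 0 at the other stages.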
